A study of Mus musculus with 24 samples.

Results

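The genes described here are 48 cell cycle and replication genes, taken by gene symbol from the count table, in which all 48 were found among 51138 genes. They fall into 17 genes of the G1/S transition and DNA replication and 31 genes of G2 and mitosis (G2/M). All 48 passed the filter of 10 counts over all libraries, as did 30564 genes in all, and the member with the fewest reads had 2934 counts over the 24 libraries.

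Bulk RNA sequencing was performed on whole constructs explanted 2 weeks after subcutaneous implantation in the back of male and female Foxp3-DTR/eGFP mice, which were 8 to 9 weeks old. All hosts, those of the groups without toxin included, carried this allele, through which Foxp3-expressing regulatory T cells (Treg) become sensitive to diphtheria toxin. Each construct consisted of 40 mg of biphasic calcium phosphate (BCP) granules, a ceramic bone substitute, and each host carried 2 constructs of the same group. Every group held 4 animals, and the 24 libraries fell into 6 groups.

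Granules carried no cells in the BCP group and 800000 bone marrow mesenchymal stromal cells (MSC) of C57BL/6J background in BCP+MSC. In BCP+MSC+RvE1 the seeded MSC were primed for 36 h with 10 nM resolvin E1 (RvE1), a lipid mediator that promotes the resolution of inflammation. In BCP+MSC+Treg the MSC were cocultured for 36 h with sorted, activated Treg. The hosts of (dep)BCP+MSC were given diphtheria toxin at 50 µg per kg by intraperitoneal injection after implantation, and those of (dep)BCP+MSC+RvE1inj received in addition daily local injections of 1 µM RvE1. No group received the toxin without the Foxp3-DTR allele, so loss of Treg and other effects of the toxin cannot be told apart. The authors describe the toxin-treated hosts as a Treg-depletion experiment in which every animal was depleted. BCP+MSC comes from their priming groups, so toxin and experiment cannot be told apart either. No vehicle injection is described, for the toxin or for RvE1. The RNA came from seeded and host cells together, and an expansion or loss of dividing cells cannot be told apart from a change of RNA within them.

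Cells copy their DNA in S phase and divide in mitosis, and most of the genes needed for each step are transcribed only shortly before it. At the G1/S transition cyclin E with its kinase and the E2F factors switch on the genes for replication, among them the Mcm proteins that form the replicative helicase and Pcna, the clamp that holds the polymerase on DNA. Genes of mitosis follow later, through the MuvB complex together with B-Myb and Foxm1, and include cyclin B, its kinase Cdk1, the mitotic kinases and the motor and kinetochore proteins that separate the chromosomes. In wounds and around implants such transcripts are known from proliferating fibroblasts, endothelial cells, macrophages and lymphocytes.

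Promoter sequences from RefSeq on GRCm38 were available for 41 of the 48 members, in 43 promoters that run from 250 bases before to 50 bases after the annotated start. They were searched on both strands for the cell cycle homology region (CHR, TTTGAA or TTCGAA), the CCAAT box (CCAAT) and E2F motifs (TTTCCCGC, TTTCGCGC, TTTGCCGC or TTTGGCGC). A CHR was present in 22 of the 28 G2/M promoters (78.6%), in 3 of the 15 G1/S promoters (20.0%) and in 19.2% of all 32851 promoters. An E2F motif was present in 6 of the 15 G1/S promoters, in 1 of the 28 G2/M promoters (3.57%, Cdk1) and in 2.26% of all promoters. The CCAAT box was found in 60.0% of the G1/S, 78.6% of the G2/M and 37.4% of all promoters, and CHR and CCAAT box together in 20.0%, 71.4% and 7.52%. The motif content thus followed the split of the members by phase, which had not used the sequence, and these matches are descriptions of letters and not of binding.

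The last 170 bases before the start are shown for 4 members that had lower levels in (dep)BCP+MSC, with the motifs in capitals, because they show both kinds of promoter. Mcm5, a helicase subunit, carries overlapping E2F motifs and CCAAT boxes. Cdk1 carries CHR, CCAAT and E2F motifs, and Top2a and Cdc20 carry CHR and CCAAT motifs.
Mcm5 (chr8:75109339-75109508, forward strand): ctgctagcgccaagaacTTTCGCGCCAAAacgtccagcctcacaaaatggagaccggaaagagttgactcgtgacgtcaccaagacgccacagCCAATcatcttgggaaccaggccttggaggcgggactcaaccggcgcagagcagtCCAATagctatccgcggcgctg
Cdk1 (chr10:69352913-69353082, reverse strand): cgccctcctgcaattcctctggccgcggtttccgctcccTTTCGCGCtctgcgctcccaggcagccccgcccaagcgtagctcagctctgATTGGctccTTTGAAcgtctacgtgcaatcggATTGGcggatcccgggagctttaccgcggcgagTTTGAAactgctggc
Top2a (chr11:99024190-99024359, reverse strand): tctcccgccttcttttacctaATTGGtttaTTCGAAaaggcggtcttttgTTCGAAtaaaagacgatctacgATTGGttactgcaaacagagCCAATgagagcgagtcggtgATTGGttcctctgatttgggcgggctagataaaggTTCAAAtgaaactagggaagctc
Cdc20 (chr4:118437344-118437513, reverse strand): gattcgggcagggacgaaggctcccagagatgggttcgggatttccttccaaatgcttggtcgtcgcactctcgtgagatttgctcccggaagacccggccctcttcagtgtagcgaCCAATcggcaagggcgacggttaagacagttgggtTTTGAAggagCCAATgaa

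The libraries held 8482701 to 144417743 counted read pairs, a 17.0-fold range, and levels are given as CPM, counts scaled to the library total after TMM normalization. The smallest detectable level was taken as 3 counts over the library total, without the TMM factor. It was 0.0208 CPM in the deepest and 0.354 CPM in the shallowest library and covers counting error only. A pair of libraries stood apart for these genes, (dep)BCP+MSC replicates 1 and 2, the first of which was the shallowest library. Over the 31 G2/M members the mean log2 CPM was 1.19 and 1.26 in these libraries, against 2.75 and 3.04 in the other 2 libraries of their group, which are columns numbered 4 and 5 without a matched replicate number. In all other libraries the mean lay between 2.22 and 3.87. One of these 2 libraries had the lowest value of all 24 for 26 of the 31 G2/M and 14 of the 17 G1/S members. Markers of muscle and macrophages were present throughout. All 15 skeletal muscle markers were detected in every library, with summed levels from 375 CPM in BCP+MSC replicate 2 to 46561 CPM in BCP+MSC+RvE1, and summed macrophage markers ranged from 7414 to 17581 CPM.

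**Figure D1:**
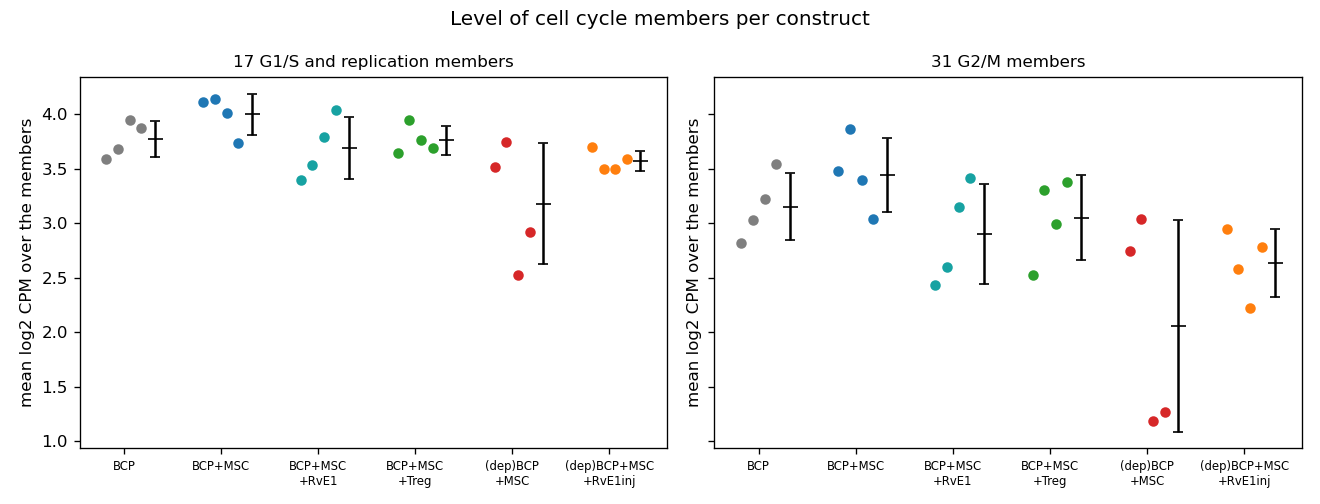
Mean log2 CPM over the 17 G1/S members (left) and the 31 G2/M members (right) in each of the 24 constructs (points; in (dep)BCP+MSC columns 4 and 5 come first, then replicates 1 and 2), with the mean and SD of each group of 4 beside them. In both panels 2 of the 4 (dep)BCP+MSC libraries lie below all others, at 2.53 and 2.92 for G1/S and 1.19 and 1.26 for G2/M.

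Per kilobase of exon, the replication genes were the more abundant of the members. The median level over all libraries was 4.45 CPM per kb for the G1/S and 1.86 CPM per kb for the G2/M members. Pcna stood first with 43.0 CPM per kb, followed by E2f1, the transcription factor, with 10.8 CPM per kb and the helicase subunits Mcm3 with 8.50 and Mcm6 with 7.27 CPM per kb. Of the G2/M members, the highest were Ube2c, a ubiquitin-conjugating enzyme of the anaphase-promoting complex, with 5.43 CPM per kb, and Cdc20, an activator of that complex, with 5.31 CPM per kb. The lowest were Cenpf, a kinetochore protein, with 0.319 CPM per kb, the spindle checkpoint kinase Ttk with 0.449 CPM per kb, and the DNA damage kinase Chek1 with 0.479 CPM per kb. G2/M members varied more between libraries: the highest level was 10.1 times the lowest for the median G2/M member and 3.79 times for the median G1/S member. This ratio exceeded 10 for 16 G2/M members and 0 G1/S members. Some of these ratios rest on values near or below the smallest detectable level. In (dep)BCP+MSC replicate 1 that level was 0.354 CPM before the TMM factor of 1.18, and thus lower on the scale of the values. After this factor Bub1 was at 0.199 and Kif2c at 0.299 CPM. The highest value of the 24 libraries was in a BCP+MSC library for 12 of the 17 G1/S and 26 of the 31 G2/M members, 16 of the latter in replicate 2 alone.

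Of the members, 14 share exon sequence with another gene, and since reads were counted without regard to strand and ambiguous reads left out, their counts are less certain. Among them are Ube2c, which overlaps the muscle troponin gene Tnnc2, Mcm7, which overlaps Cops6 and Ap4m1, Prc1, which overlaps Rccd1, and Kif20a, which overlaps Cdc23. A further limit holds for Pcna, Tyms, Ccnb1, Ccnb2 and Kif4, for which named pseudogenes exist.

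Across the 6 groups, tested together with edgeR's quasi-likelihood F-test, 3 members differed at a Benjamini-Hochberg adjusted p-value under 0.05 (the share of all genes was 4.75%) and 16 members at an unadjusted p-value under 0.05 (20.4% of all genes). The 3 were Mcm5 (adjusted p = 0.0167), E2f1 (adjusted p = 0.0196) and Mcm2 (adjusted p = 0.0391), all of the G1/S class. Of the 16, 6 were G1/S and 10 G2/M members. The count changed with the libraries of (dep)BCP+MSC, as did the share of all genes. Without its replicate 1 there was 1 adjusted member (2.91% of all genes). Without its replicate 2 there were 0 (2.88%), and without column 5 there were 5 (5.34%).

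**Figure D2:**
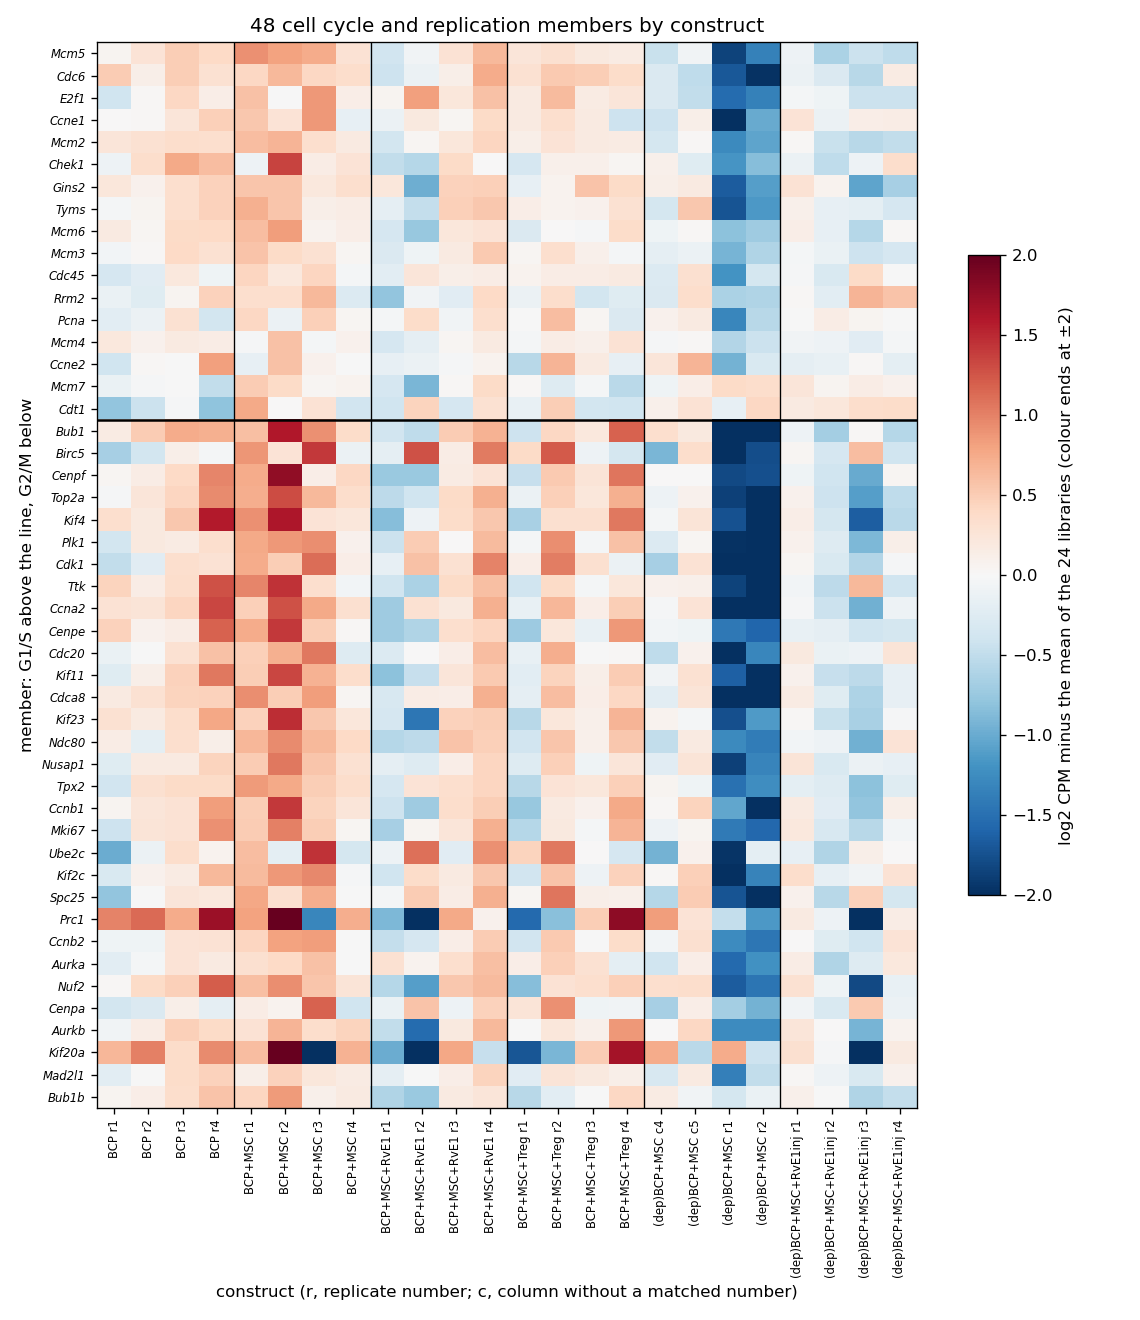
Log2 CPM of each member minus its mean over the 24 libraries (colour, blue below and red above the mean), with members in rows (17 G1/S above the black line, 31 G2/M below it) and constructs in columns by group. Within (dep)BCP+MSC, replicates 1 and 2 are blue for most rows and columns 4 and 5 are near the mean.

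Constructs from toxin-treated and untreated hosts were compared as (dep)BCP+MSC against BCP+MSC. All 48 members had a log2 fold change below 0, and 11 were lower at an adjusted p-value under 0.05 in edgeR (2.17% of all genes were lower by this rule). These were 5 of the 17 G1/S members, Mcm2, Mcm3, Mcm5, E2f1 and the licensing factor Cdc6, and 6 of the 31 G2/M members, Top2a, Cdk1, Plk1, Tpx2, Cdc20 and Nusap1. At an unadjusted p-value under 0.05, 12 G1/S and 26 G2/M members were lower, 38 in all (10.7% of all genes). For 18 members every (dep)BCP+MSC library lay below every BCP+MSC library (4.93% of all genes). The median log2 fold change was -0.80 for the G1/S and -1.18 for the G2/M members, against -0.04 for all genes tested.

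Among the helicase subunits, Mcm5 (ENSMUSG00000005410.6, chr8:75109569-75128439 on GRCm38) showed the smallest p-value of the 48. Its level in BCP+MSC was 30.7, 28.7, 27.4 and 19.9 CPM in replicates 1 to 4, and in (dep)BCP+MSC 4.49, 6.41, 12.0 and 15.6 CPM in replicates 1 and 2 and columns 4 and 5. It was 15.2, 10.5, 12.2 and 11.5 CPM in (dep)BCP+MSC+RvE1inj, 17.0, 19.8, 23.0 and 21.7 CPM in BCP, 12.6, 15.5, 20.0 and 25.6 CPM with RvE1-primed MSC and 19.3, 20.3, 18.7 and 18.3 CPM with Treg. The (dep)BCP+MSC values did not overlap those of BCP+MSC, and all 8 values from toxin-treated hosts lay below the lowest value of BCP+MSC. The log2 fold change against BCP+MSC was -1.46 ± 0.29 (SE; adjusted p = 0.00422, edgeR), and the exact two-sided permutation test gave p = 0.0286, the smallest p that 4 against 4 libraries allow. Without (dep)BCP+MSC replicates 1 and 2 the log2 fold change was -0.93 (adjusted p = 0.191).

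Mcm2, another helicase subunit, was at 26.2, 27.7, 21.6 and 19.4 CPM in BCP+MSC and at 7.08, 8.26, 13.4 and 17.5 CPM in (dep)BCP+MSC, again with no overlap. Its levels were 17.4, 12.6, 11.7 and 12.3 CPM in (dep)BCP+MSC+RvE1inj, 20.4, 21.3, 22.0 and 21.6 CPM in BCP, 13.4, 17.6, 20.2 and 23.1 CPM with RvE1-primed MSC and 18.7, 20.8, 19.5 and 19.3 CPM with Treg. The log2 fold change in (dep)BCP+MSC was -1.03 ± 0.24 (SE; adjusted p = 0.0139, edgeR). E2f1, which drives transcription of replication genes, was at 47.5, 31.5, 57.9 and 34.7 CPM in BCP+MSC and 11.0, 12.5, 25.9 and 22.6 CPM in (dep)BCP+MSC, with a log2 fold change of -1.25 ± 0.26 (SE; adjusted p = 0.00721, edgeR). Cdc6, which loads the helicase on origins, was at 4.45, 5.22, 4.42 and 4.23 CPM and 0.997, 0.819, 2.72 and 2.31 CPM in the same groups (adjusted p = 0.0203, edgeR), and Mcm3 was at 46.1, 40.6, 38.5 and 31.9 CPM and 16.2, 20.5, 27.5 and 28.5 CPM (adjusted p = 0.0341, edgeR). For these 3 genes too, each (dep)BCP+MSC library lay below each BCP+MSC library.

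Other genes of the G1/S class did not pass the adjusted threshold. Pcna was at 133, 92.8, 139 and 103 CPM in BCP+MSC and 40.7, 68.5, 107 and 114 CPM in (dep)BCP+MSC, where replicates 1 and 2 were low and columns 4 and 5 within the range of BCP+MSC (log2 fold change -0.50 ± 0.25, SE; adjusted p = 0.263, edgeR). In BCP, Pcna was at 86.2, 92.5, 124 and 77.7 CPM, and after RvE1 priming at 97.6, 129, 95.5 and 127 CPM. With Treg, Pcna was at 99.5, 154, 103 and 82.0 CPM, and after RvE1 injection between 99.3 and 111 CPM. Of these groups, BCP replicate 4 was lowest and BCP+MSC+Treg replicate 2 highest for Pcna. Ccne1, which encodes cyclin E1, was at 7.34, 6.07, 9.24 and 4.47 CPM in BCP+MSC and 1.10, 2.48, 3.75 and 5.46 CPM in (dep)BCP+MSC, and the groups overlapped in 1 library of the latter (log2 fold change -1.06 ± 0.33, SE; adjusted p = 0.0730, edgeR). In BCP, Ccne1 was at 5.07, 5.13, 5.98 and 6.99 CPM, and after RvE1 priming at 4.63, 5.78, 5.20 and 6.54 CPM. With Treg, Ccne1 was at 5.69, 6.39, 5.69 and 3.78 CPM, and after RvE1 injection at 6.11, 4.66, 5.52 and 5.57 CPM. Of these groups, BCP+MSC+Treg replicate 4 was lowest and BCP replicate 4 highest for Ccne1. Rrm2, the regulated subunit of ribonucleotide reductase, was at 16.7, 16.6, 20.6 and 10.9 CPM in BCP+MSC and 8.47, 8.65, 10.8 and 16.8 CPM in (dep)BCP+MSC (log2 fold change -0.53 ± 0.28, SE; adjusted p = 0.297, edgeR). In BCP, Rrm2 was at 12.1, 11.1, 13.6 and 18.2 CPM, and after RvE1 priming at 7.65, 12.5, 11.2 and 17.3 CPM. With Treg, Rrm2 was at 12.1, 16.8, 10.2 and 11.1 CPM, and after RvE1 injection at 13.4, 11.4, 21.2 and 19.6 CPM. Of these groups, BCP+MSC+RvE1 replicate 1 was lowest and (dep)BCP+MSC+RvE1inj replicate 3 highest for Rrm2. The smallest differences were those of Mcm7 (-0.06 ± 0.22, SE), the licensing factor Cdt1 (-0.05 ± 0.27) and Ccne2, the gene of cyclin E2 (-0.10 ± 0.33), all as log2 fold changes, the first of which overlaps other genes. The 17 G1/S members ranged from -1.46 to -0.05 on the log2 scale.

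Of the G2/M members, Mki67, the source of the proliferation marker Ki-67, was at 51.6, 72.7, 51.0 and 37.3 CPM in BCP+MSC and 13.6, 12.1, 33.7 and 37.4 CPM in (dep)BCP+MSC. In BCP, Mki67 was at 27.1, 43.1, 44.3 and 68.4 CPM, and after RvE1 priming at 22.8, 37.6, 43.0 and 59.5 CPM. With Treg, Mki67 was at 24.3, 41.6, 35.4 and 58.2 CPM, and after RvE1 injection at 41.9, 29.1, 24.6 and 34.8 CPM. Of these groups, BCP+MSC+RvE1 replicate 1 was lowest and BCP replicate 4 highest for Mki67. Column 5 of (dep)BCP+MSC reached the lowest BCP+MSC library, and the log2 fold change of -1.13 ± 0.36 (SE) did not pass the adjusted threshold (adjusted p = 0.0780, edgeR). Top2a, the topoisomerase that untangles chromosomes, was at 37.7, 56.1, 35.6 and 29.0 CPM in BCP+MSC and 6.18, 4.82, 21.1 and 24.1 CPM in (dep)BCP+MSC, without overlap. In BCP, Top2a was at 22.5, 26.8, 30.5 and 43.7 CPM, and after RvE1 priming at 15.8, 17.3, 29.6 and 37.1 CPM. With Treg, Top2a was at 21.0, 31.6, 26.6 and 37.2 CPM, and after RvE1 injection at 24.0, 17.1, 10.5 and 16.1 CPM. Of these groups, (dep)BCP+MSC+RvE1inj replicate 3 was lowest and BCP replicate 4 highest for Top2a. The log2 fold change of Top2a in (dep)BCP+MSC against BCP+MSC was -1.48 ± 0.41 (SE; adjusted p = 0.0435, edgeR).

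Cdk1, the kinase that drives entry into mitosis, was at 27.0, 22.7, 35.3 and 17.7 CPM in BCP+MSC and 3.49, 4.00, 10.3 and 19.7 CPM in (dep)BCP+MSC. In BCP, Cdk1 was at 11.5, 13.8, 20.5 and 19.7 CPM, and after RvE1 priming at 14.4, 24.4, 20.0 and 32.4 CPM. With Treg, Cdk1 was at 17.8, 33.0, 20.1 and 15.0 CPM, and after RvE1 injection at 16.6, 13.0, 10.7 and 15.9 CPM. Of these groups, (dep)BCP+MSC+RvE1inj replicate 3 was lowest and BCP+MSC+Treg replicate 2 highest for Cdk1. In (dep)BCP+MSC against BCP+MSC it fell by 1.44 on the log2 scale (SE 0.40; adjusted p = 0.0440, edgeR), although column 5 lay within the range of BCP+MSC. Ccnb1, the gene of its partner cyclin B1, was at 7.80, 14.9, 7.61 and 6.61 CPM and 2.69, 0.795, 5.64 and 7.60 CPM in the same 2 groups (log2 fold change -1.13 ± 0.47, SE; adjusted p = 0.170, edgeR). In BCP, Ccnb1 was at 5.77, 6.54, 6.79 and 9.95 CPM, and after RvE1 priming at 4.18, 3.37, 7.09 and 7.86 CPM. With Treg, Ccnb1 was at 3.27, 6.26, 5.91 and 9.45 CPM, and after RvE1 injection at 6.31, 4.74, 3.21 and 6.04 CPM. Of these groups, (dep)BCP+MSC+RvE1inj replicate 3 was lowest and BCP replicate 4 highest for Ccnb1. Here BCP+MSC replicate 2 stood well above the other 3 libraries of its group. Aurkb, the kinase of the chromosomal passenger complex, was at 7.37, 9.72, 7.75 and 8.26 CPM and 2.49, 2.51, 6.09 and 8.02 CPM (log2 fold change -0.78 ± 0.40, SE; adjusted p = 0.269, edgeR). In BCP, Aurkb was at 5.71, 6.67, 8.38 and 7.87 CPM, and after RvE1 priming at 4.29, 2.05, 6.94 and 9.43 CPM. With Treg, Aurkb was at 5.99, 7.09, 6.46 and 11.0 CPM, and after RvE1 injection at 7.16, 6.08, 3.13 and 6.34 CPM. Of these groups, BCP+MSC+RvE1 replicate 2 was lowest and BCP+MSC+Treg replicate 4 highest for Aurkb.

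The smallest p-values of the G2/M class belonged to Tpx2, a spindle assembly factor, and Plk1, a mitotic kinase. Tpx2 was at 30.5, 28.4, 23.8 and 21.4 CPM in BCP+MSC and 5.98, 7.11, 17.4 and 15.8 CPM in (dep)BCP+MSC (log2 fold change -1.16 ± 0.30, SE; adjusted p = 0.0290, edgeR). Plk1 was at 10.1, 11.0, 11.5 and 6.34 CPM in BCP+MSC and between 1.47 and 6.15 CPM in (dep)BCP+MSC (log2 fold change -1.45 ± 0.40, SE; adjusted p = 0.0400, edgeR). For both genes the 2 groups did not overlap. Cdc20 was at 12.7, 14.9, 19.0 and 7.59 CPM and 1.79, 3.66, 6.42 and 9.61 CPM and overlapped in column 5 (adjusted p = 0.0400, edgeR), and Nusap1, a spindle microtubule protein, was at 8.95, 13.0, 9.20 and 7.77 CPM and 1.69, 2.48, 5.35 and 7.47 CPM without overlap (adjusted p = 0.0495, edgeR). The 31 G2/M members ranged from -1.54 for the checkpoint kinase Bub1 to -0.50 for Bub1b on the log2 scale, and Bub1 itself did not pass the adjusted threshold (adjusted p = 0.131, edgeR).

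**Figure D3:**
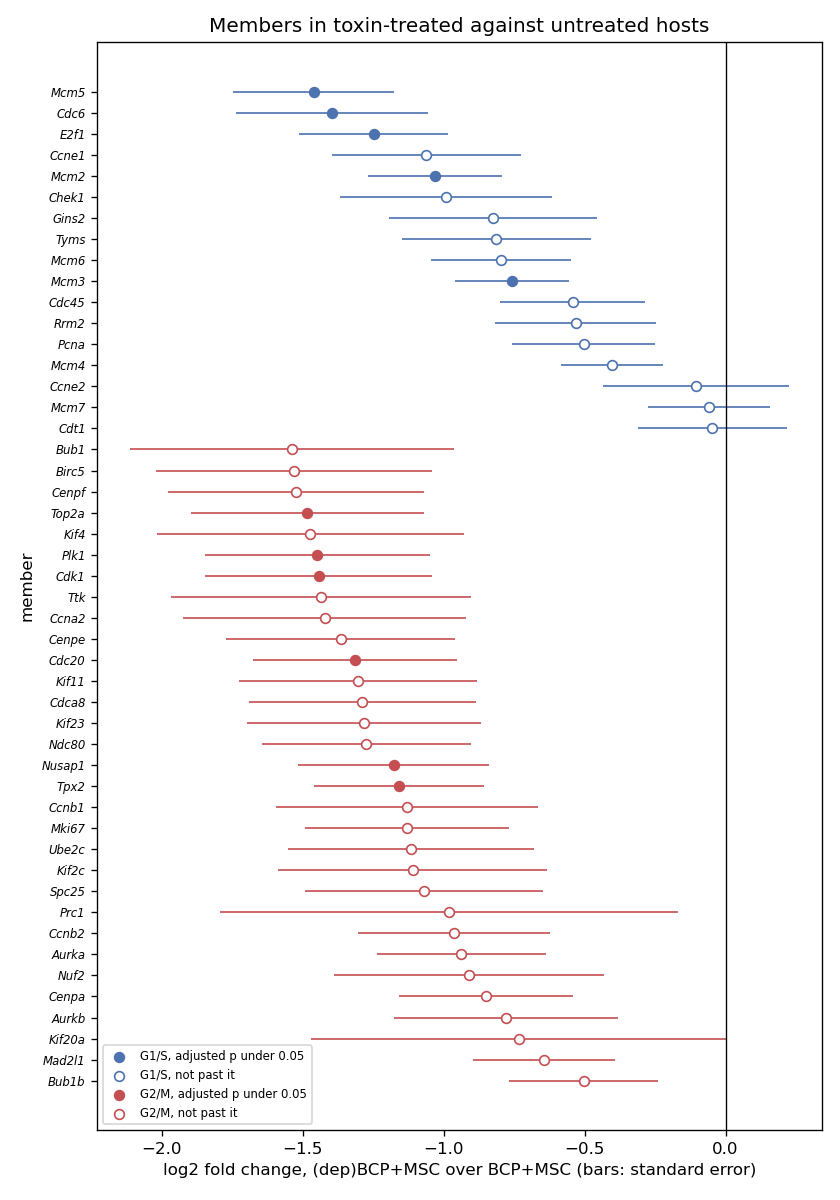
Log2 fold change of each of the 48 members in (dep)BCP+MSC over BCP+MSC (x axis; bars are standard errors), with filled points where the adjusted p-value was under 0.05. All points lie below 0, from -1.54 for Bub1 to -0.05 for Cdt1, and 11 are filled.

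**Figure D4:**
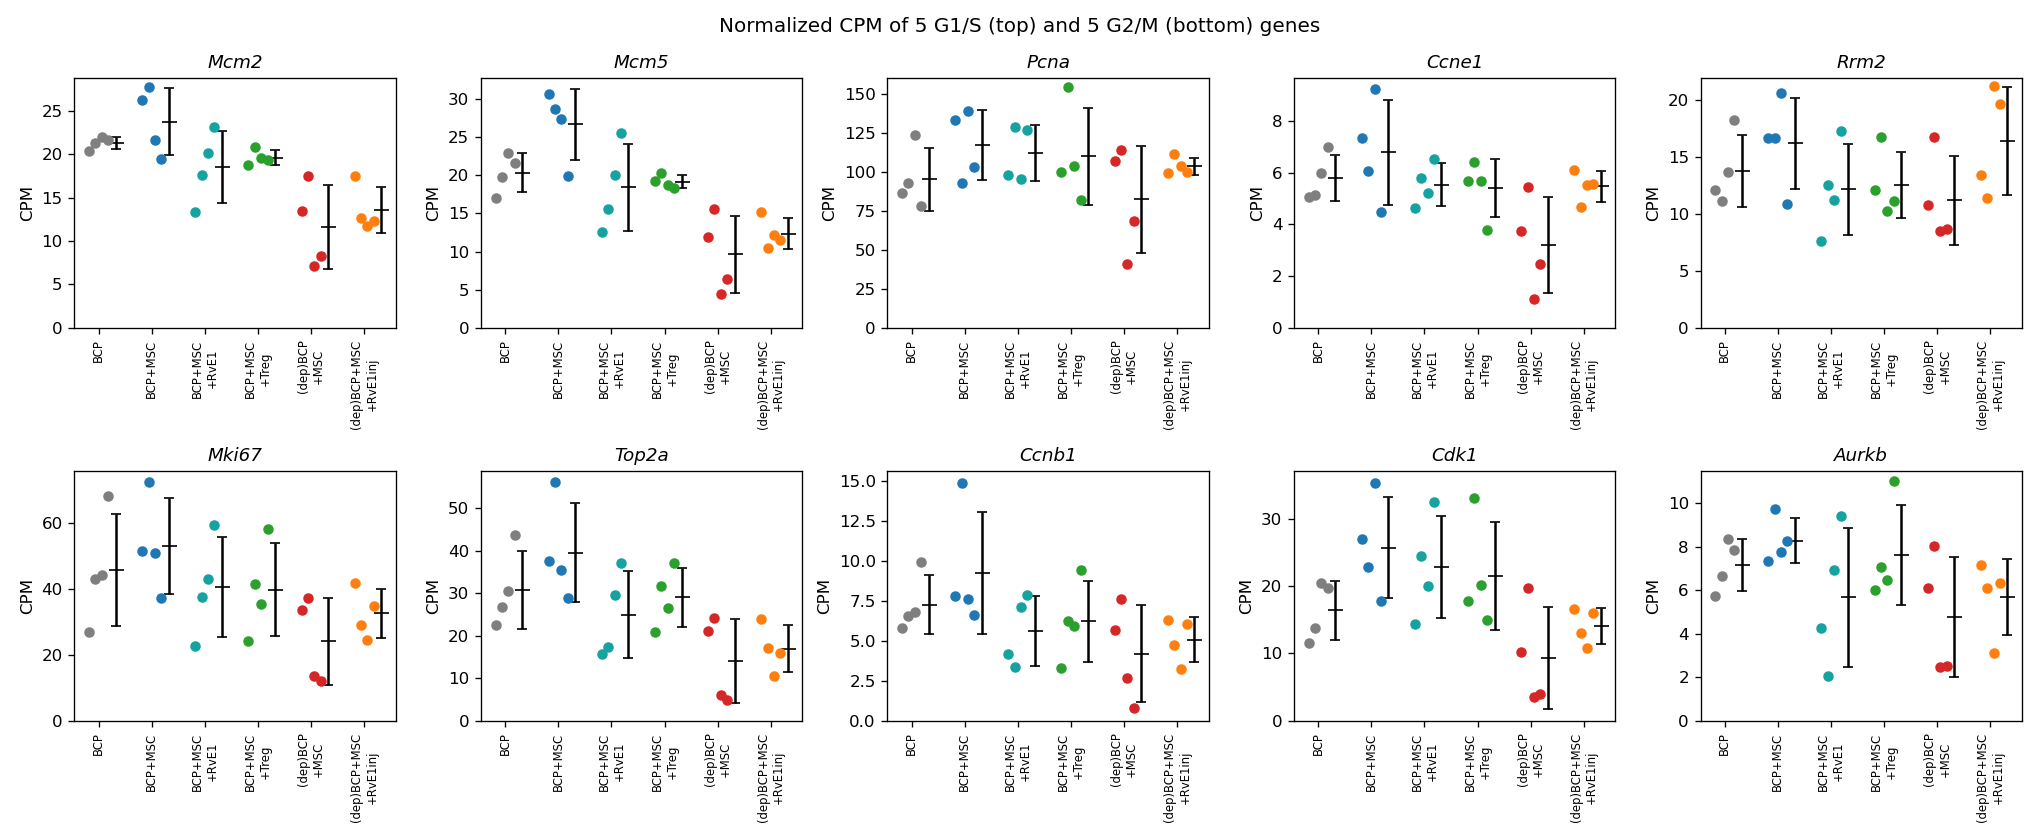
CPM (y axis, from 0) of 5 G1/S and 5 G2/M genes in every construct by group, with the mean and SD of the 4 libraries beside the points. For Mcm2, Mcm5 and Top2a all 4 (dep)BCP+MSC points lie below the 4 BCP+MSC points, and for the other genes 1 or 2 of them reach the range of BCP+MSC.

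The number of calls depended on single libraries. Leaving out (dep)BCP+MSC replicate 1 or replicate 2 left 2 adjusted members in each case (1.54% and 1.60% of all genes were then called), and leaving out both left 0 adjusted members in edgeR (0.142% of all genes were then called), 6 members at an unadjusted p-value under 0.05 (4.68% of all genes) and 47 of 48 below 0. The median log2 fold change was then -0.25 for the G1/S members and -0.56 over all 48 members, against -1.09 over all 48 with every library. Leaving out BCP+MSC replicate 1, 2 or 3 left 4, 3 and 5 adjusted members (2.15%, 2.61% and 2.22% of all genes), and leaving out column 5 of (dep)BCP+MSC gave 27 (5.50% of all genes). DESeq2 called 27 members, the 11 of edgeR among them, where it called 9.47% of all genes. The edgeR fit to only these 2 groups called 0 members (0.595% of all genes), with 26 lower at an unadjusted p-value under 0.05 (8.17% of all genes).

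Markers of other cell types moved with this comparison. Of 10 fibroblast and stromal markers, 5 were lower at an adjusted p-value under 0.05 in edgeR, with a median log2 fold change of -1.48. Their summed level was 7816 to 18969 CPM in (dep)BCP+MSC and 21290 to 48188 CPM in BCP+MSC, and all 10 were detected in every library. Thy1, a surface marker of stromal and T cells, was at 153, 224, 178 and 114 CPM in BCP+MSC and 24.6, 37.1, 73.3 and 90.8 CPM in (dep)BCP+MSC. Of 12 skin and hair follicle markers, 3 were higher (Krt10, Krt1 and Lor), with summed levels of 31.2 to 545 CPM against 9.65 to 58.7 CPM, and Krt25 was at 0 in every (dep)BCP+MSC library. No macrophage marker of 12 passed the adjusted threshold, and 1 was lower at an unadjusted p-value under 0.05, in edgeR. The summed macrophage level was 7414 to 13458 CPM in (dep)BCP+MSC and 10509 to 15395 CPM in BCP+MSC. Muscle markers had a median log2 fold change of 1.02 with 0 of 15 past the adjusted threshold in edgeR and 2 higher at an unadjusted p-value under 0.05. With the muscle level of each library as a covariate, 6 members were called (4.70% of all genes) and the median over the members was -0.95, against -1.09 without it. The part of the stromal, skin and macrophage markers in the lower levels of the members was not tested. Foxp3 itself was at 0.985 ± 0.542 CPM (SD, n = 4) in (dep)BCP+MSC, 0.705 ± 0.315 CPM in (dep)BCP+MSC+RvE1inj and 0.933 ± 0.240 CPM in BCP+MSC, differences within the spread between libraries. Of 9 neutrophil markers 1 was higher at an adjusted p-value under 0.05 in edgeR (Camp), with summed levels of 106 to 637 CPM against 257 to 399 CPM. Of these 9, 4 had log2 fold changes above 0 and 5 below 0 (median -0.36). At an unadjusted p-value under 0.05 in edgeR, 3 were higher and 2 lower. The 9 T cell markers summed to 37.1 to 150 CPM against 31.6 to 60.9 CPM, with 0 past the adjusted threshold in edgeR and 2 higher at an unadjusted p-value under 0.05. All 7 B cell markers had log2 fold changes below 0 (median -0.91), with 0 past the adjusted threshold in edgeR and 1 lower at an unadjusted p-value under 0.05. Their summed level was 5.74 to 18.4 CPM in (dep)BCP+MSC and 7.23 to 37.6 CPM in BCP+MSC. The part of these cells was not tested either.

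Genes of the cell cycle outside the 48 were described from 5 further lists. In (dep)BCP+MSC against BCP+MSC, 35 of 36 other mitosis and cytokinesis genes were below 0, with 2 lower at an adjusted p-value under 0.05 in edgeR, Kif22 and Ncapd2, and a median log2 fold change of -1.02. Of 20 other genes of the replication fork and licensing, 19 were below 0 and 3 were adjusted lower, Uhrf1, Lig1 and Tk1, with a median of -0.55. Uhrf1, which maintains DNA methylation at replication forks, was at 28.4, 30.7, 21.6 and 16.2 CPM in BCP+MSC and 3.09, 2.63, 11.0 and 11.7 CPM in (dep)BCP+MSC (log2 fold change -1.75 ± 0.39, SE; adjusted p = 0.0118, edgeR). Lig1, the ligase that joins Okazaki fragments, was at 31.5, 24.6, 34.6 and 18.2 CPM and 5.78, 7.85, 13.1 and 20.2 CPM (adjusted p = 0.0259, edgeR). Uhrf1 did not overlap between the groups, and Lig1 did in 1 library.

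Of 11 cell cycle transcription factors, 2 were lower, Foxm1 and E2f7. Foxm1, an activator of mitotic genes, was at 11.1, 20.9, 10.5 and 7.57 CPM in BCP+MSC and 2.59, 2.00, 7.98 and 5.82 CPM in (dep)BCP+MSC (log2 fold change -1.43 ± 0.39, SE; adjusted p = 0.0386, edgeR). Mybl2, the gene of B-Myb, was at 7.09, 7.59, 6.82 and 3.82 CPM and 2.49, 2.91, 3.32 and 3.97 CPM (adjusted p = 0.0919, edgeR), and Myc was at 31.5, 27.4, 40.1 and 22.1 CPM and 23.0, 32.6, 39.2 and 42.8 CPM (adjusted p = 0.757, edgeR). Of the 6 cyclin D and early G1 kinase genes 0 passed the adjusted threshold in edgeR and 2 were lower at an unadjusted p-value under 0.05. Ccnd1, the gene of cyclin D1, was at 25.6, 66.9, 13.0 and 33.2 CPM and 8.27, 7.15, 16.3 and 17.6 CPM and overlapped between the groups.

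One of the 12 inhibitors and pocket proteins was higher. Cdkn1a, which encodes the cyclin-dependent kinase inhibitor p21, was at 280.1, 281, 264 and 216 CPM in BCP+MSC and 536, 739.7, 316 and 292 CPM in replicates 1 and 2 and columns 4 and 5 of (dep)BCP+MSC. Every (dep)BCP+MSC library lay above every BCP+MSC library (log2 fold change 0.86 ± 0.25, SE; adjusted p = 0.0497, edgeR). The 2 libraries with the highest Cdkn1a were those with the lowest levels of the members. In (dep)BCP+MSC+RvE1inj, Cdkn1a was at 268, 326, 272 and 272 CPM. In the other groups without toxin it was at 196 to 337 CPM in BCP, 180 to 267 CPM in BCP+MSC+RvE1 and 226 to 299 CPM in BCP+MSC+Treg. Columns 4 and 5 thus lay within the range of BCP.

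**Figure D5:**
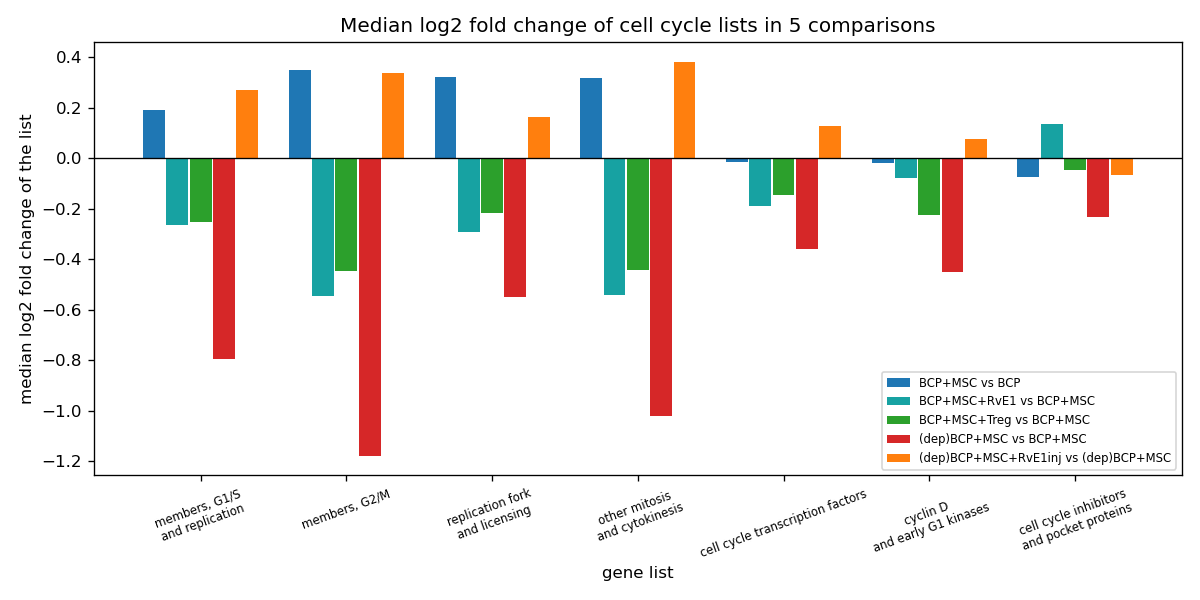
Median log2 fold change (bars, from 0) of 7 cell cycle gene lists in 5 comparisons. The red bars of (dep)BCP+MSC against BCP+MSC are the longest for the members (-0.80 and -1.18) and for the other mitosis genes (-1.02), and short for inhibitors and pocket proteins.

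Injection of RvE1 in toxin-treated hosts was compared with toxin alone. No member passed the adjusted threshold in edgeR (0% of all genes did) or in DESeq2. At an unadjusted p-value under 0.05, 4 members were higher (3.46% of all genes) and 0 lower (3.96% of all genes), and DESeq2 gave 4 as well. The log2 fold change was above 0 for 43 of 48 members, with medians of 0.27 for G1/S and 0.34 for G2/M against 0.00 for all genes. The 4 were E2f1, Ccne1, Cdc6 and Cdc20. After injection E2f1 was at 31.1, 30.0, 23.7 and 23.7 CPM and Cdc20 at 10.4, 8.33, 8.43 and 10.9 CPM. E2f1 had a log2 fold change of 0.59 ± 0.26 (SE; adjusted p = 0.668, edgeR), Ccne1 of 0.75 ± 0.33, Cdc6 of 0.75 ± 0.34 and Cdc20 of 0.81 ± 0.36. Birc5, the gene of survivin and the G2/M member with the next smallest p-value, was at 12.6, 9.68, 18.7 and 9.30 CPM after injection and 2.09, 3.57, 6.51 and 15.7 CPM with toxin alone (log2 fold change 0.83 ± 0.48, SE). Each of these 5 genes overlapped between the groups: every injected library lay above replicates 1 and 2 of (dep)BCP+MSC but at least 1 lay below the higher of columns 4 and 5. Without replicate 1 or without replicate 2 of (dep)BCP+MSC, 0 members passed the unadjusted threshold, and without column 5 there were 20. Without (dep)BCP+MSC+RvE1inj replicate 1 or 4 there was 1 in each case. The share of all genes at this threshold was not computed for these fits, so a shift of all genes cannot be told apart. Of the genes in the other cell cycle lists, Cdkn1a (log2 fold change -0.73 ± 0.25, SE; adjusted p = 0.668, edgeR) and Cdkn2a (1.24 ± 0.45; adjusted p = 0.668, edgeR), the p16 and p19Arf locus, had the smallest p-values. Of 7 B cell markers 6 and of 9 T cell markers 2 were higher at an unadjusted p-value under 0.05, and the part of this in the members was not tested.

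The constructs with toxin and RvE1 injection were also set against BCP+MSC, a comparison added after the values were seen that shares its control with that of the toxin alone. No member passed the adjusted threshold in edgeR (0.72% of all genes did), and DESeq2 called 3 (3.64% of all genes). At an unadjusted p-value under 0.05, 19 members were lower (7.2% of all genes), and 21 members did not overlap, with all injected libraries below (4.44% of all genes). The medians were -0.54 for G1/S and -0.82 for G2/M members. Mcm5 had a log2 fold change of -1.11 ± 0.28 (SE; adjusted p = 0.0660, edgeR), Mcm2 of -0.81 ± 0.24 (adjusted p = 0.114), Tpx2 of -0.98 ± 0.30 (adjusted p = 0.130) and Top2a of -1.22 ± 0.41 (adjusted p = 0.183). For these 4 genes all libraries lay below those of BCP+MSC. In the other cell cycle lists Uhrf1 (-1.28 ± 0.39) and Hmmr (-1.57 ± 0.49), a spindle-associated protein, had the smallest p-values. Without BCP+MSC replicate 2, 6 members were lower at an unadjusted p-value under 0.05, and without (dep)BCP+MSC+RvE1inj replicate 2 or 3 there were 10 and 9. For these fits too the share of all genes at this threshold was not computed. Of the 10 stromal markers 7 were lower at an unadjusted p-value under 0.05, and of the 9 T cell markers 8 were higher, 2 of them at an adjusted p-value under 0.05 in edgeR. Summed T cell levels were 108 to 165 CPM after injection and 31.6 to 60.9 CPM in BCP+MSC. The part of these cells was not tested.

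The addition of MSC to the ceramic was examined by comparing BCP+MSC with BCP. No member passed the adjusted threshold in edgeR (0% of all genes did) or DESeq2. At an unadjusted p-value under 0.05, 1 member was higher (2.99% of all genes) and 0 lower (2.07% of all genes), and DESeq2 gave 1. The estimates were above 0 for 46 of 48 members, with medians of 0.19 for G1/S and 0.35 for G2/M members against 0.06 for all genes. The 1 member was Cdt1, at 24.1, 14.3, 17.5 and 10.9 CPM with MSC and 8.22, 10.6, 14.0 and 8.12 CPM without (log2 fold change 0.70 ± 0.27, SE; adjusted p = 0.888, edgeR), with overlap. Mcm7 was at 36.9, 33.7, 26.6 and 27.3 CPM and 23.7, 25.5, 25.9 and 18.4 CPM, without overlap (log2 fold change 0.41 ± 0.22, SE). Birc5 was at 22.6, 14.8, 32.7 and 11.3 CPM and 7.70, 9.47, 13.3 and 11.9 CPM, and Cenpa, the centromeric histone, was at 24.7, 23.4, 50.4 and 17.0 CPM and 17.3, 18.3, 24.3 and 19.7 CPM, both with overlap. In the other lists Fbxo5, an inhibitor of the anaphase-promoting complex, at 6.01 ± 1.18 against 3.46 ± 0.831 CPM (SD, n = 4), and the antiproliferative gene Btg2, at 101 ± 40.5 against 215 ± 189.6 CPM, had the smallest p-values. Leaving out BCP replicate 1 or BCP+MSC replicate 1 left 0 members past the unadjusted threshold, and leaving out BCP+MSC replicate 4 gave 3. Shares of all genes were not computed for these fits.

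The constructs with primed MSC or Treg were also set against BCP, which is the control of all 3 comparisons. In BCP+MSC+RvE1 against BCP, 0 members passed the adjusted threshold in edgeR (0% of all genes) and 0 the unadjusted threshold, where 8.86% of all genes were higher and 6.7% lower. DESeq2 gave 0 at both thresholds. The median log2 fold changes were -0.13 for the G1/S and -0.17 for the G2/M members. The smallest p-values were those of Cdt1 (0.52 ± 0.27, SE), Chek1 (-0.56 ± 0.37), Birc5 (0.90 ± 0.48) and Bub1b (-0.45 ± 0.27), as log2 fold changes, and in the other lists those of Rpa2 (1.01 ± 0.37), a subunit of the single-strand binding protein, and Pttg1 (1.26 ± 0.46), the gene of securin. Leaving out BCP replicate 3 gave 1, and leaving out BCP+MSC+RvE1 replicate 1, 3 or 4 gave 2, 3 and 1 members past the unadjusted threshold. In BCP+MSC+Treg against BCP, 0 members passed the adjusted threshold (0% of all genes) and 0 the unadjusted threshold in edgeR, where 4.98% of all genes were higher and 2.62% lower, and DESeq2 gave 0 at both. The medians were -0.06 and -0.07. The smallest p-values were those of Cdt1 (0.42 ± 0.27, SE), Chek1 (-0.46 ± 0.37), Cenpa (0.48 ± 0.31) and Birc5 (0.63 ± 0.48), and in the other lists those of Btg2 (-1.17 ± 0.45) and Gmnn (0.78 ± 0.31), the gene of the licensing inhibitor geminin. Leaving out BCP replicate 3 gave 1 member past the unadjusted threshold. Shares of all genes with a library left out were computed for neither comparison at this threshold.

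Priming of MSC with RvE1 was compared with unprimed MSC. No member passed the adjusted threshold in edgeR (0% of all genes) or DESeq2. At an unadjusted p-value under 0.05, 3 members were lower (1.92% of all genes) and 0 higher (1.33% of all genes), and DESeq2 gave 3. The estimate was below 0 for 46 of 48 members, with medians of -0.27 for G1/S and -0.55 for G2/M members against -0.04 for all genes. Mcm6 was at 25.9, 19.3, 38.1 and 39.5 CPM with priming and 50.2, 58.4, 34.1 and 35.8 CPM without (log2 fold change -0.54 ± 0.25, SE; adjusted p = 0.924, edgeR). Cenpf was at 2.53, 2.53, 4.77 and 5.12 CPM and 7.09, 14.7, 4.67 and 5.67 CPM (log2 fold change -1.10 ± 0.45, SE), and Bub1b, a spindle checkpoint protein, was at 6.82, 6.20, 11.7 and 12.2 CPM and 13.9, 18.7, 11.0 and 11.7 CPM (-0.58 ± 0.27). Mcm5 (-0.53 ± 0.28) followed, and all 4 genes overlapped between the groups. In the other lists Mybl2 (-0.77 ± 0.33) and the cytokinesis gene Ect2 (-1.22 ± 0.53) had the smallest p-values. Without BCP+MSC replicate 2, which had the highest levels of G2/M members and the lowest muscle markers, or without BCP+MSC+RvE1 replicate 1 or 2, 0 members passed the unadjusted threshold. Without BCP+MSC replicate 4 or BCP+MSC+RvE1 replicate 3 or 4 there were 6, 7 and 12, and with the muscle covariate there were 0. How many of all genes passed this threshold in these fits was not computed.

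Coculture with Treg was compared with MSC alone, with the same control. No member passed the adjusted threshold in edgeR (0% of all genes) or DESeq2. All 48 estimates were below 0, with medians of -0.25 and -0.45, and 1 member was lower at an unadjusted p-value under 0.05 (1.42% of all genes) and 0 higher (1.29% of all genes), and DESeq2 gave 1 in all. This was Mcm7, at 26.4, 21.6, 25.2 and 17.9 CPM with Treg and 36.9, 33.7, 26.6 and 27.3 CPM without, which did not overlap (log2 fold change -0.45 ± 0.22, SE; adjusted p = 1.00, edgeR). Mcm6 (-0.42 ± 0.25), Bub1b (-0.48 ± 0.27) and Tpx2 (-0.48 ± 0.30) followed, as did Cdc25b (-0.54 ± 0.23), a phosphatase that activates Cdk1, and Zwilch (-0.73 ± 0.43), a kinetochore protein, in the other lists. Mcm7 no longer passed the unadjusted threshold without BCP+MSC replicate 1 or 2 or BCP+MSC+Treg replicate 2, with RLE normalization or with no filter. Without BCP+MSC+Treg replicate 4, 2 members passed it (share of all genes not computed).

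The primed and cocultured constructs were compared with each other. No member passed the adjusted threshold (0% of all genes) or the unadjusted threshold in edgeR, where 1.23% of all genes lay higher with Treg and 1.14% lower, and DESeq2 gave 0 at both. The smallest p-values were those of Mcm4 (0.19 ± 0.18, SE), Cdc6 (0.27 ± 0.33), Cenpf (0.63 ± 0.45) and Aurkb (0.41 ± 0.39), as log2 fold changes, and in the other lists those of Cdkn1c (-0.56 ± 0.31), the gene of the inhibitor p57, and Btg2 (-0.65 ± 0.45). With the replicate number as a block, which this pair of groups allowed, 0 members passed either threshold as well.

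A pair of G2/M members that act on the same structure, named here after their values were seen, ranged widely. Prc1, which bundles the microtubules of the central spindle, ranged 95.9-fold over the libraries, and Kif20a, a kinesin of the same structure, 22.6-fold. Such a range was not particular to this pair: Bub1 (38.4-fold), Kif2c (31.2-fold) and Ttk (26.8-fold) exceeded Kif20a, and Kif4 ranged 22.1-fold. The range of Prc1 rests on 0.298 CPM in (dep)BCP+MSC+RvE1inj replicate 3, near the smallest detectable level of that library, 0.217 CPM. In BCP+MSC, Prc1 was at 11.3, 28.6, 2.58 and 10.6 CPM, and after RvE1 priming at 3.43, 1.32, 10.9 and 6.80 CPM. With Treg it was at 2.17, 3.59, 9.09 and 22.4 CPM, and after RvE1 injection in toxin-treated hosts at 7.30, 5.96, 0.298 and 7.11 CPM. In these groups and in this order, Kif20a was at 4.56, 13.5, 0.662 and 4.84 CPM, 1.47, 0.722, 5.09 and 2.14 CPM, 0.880, 1.55, 4.25 and 9.54 CPM and 3.73, 2.93, 0.597 and 3.38 CPM. Both were at their lowest within each of these groups in the same library, BCP+MSC replicate 3, BCP+MSC+RvE1 replicate 2, BCP+MSC+Treg replicate 1 and (dep)BCP+MSC+RvE1inj replicate 3. They were not alone in this: Bub1b and Cenpf were also lowest in all 4 of these libraries within their groups, and Ccnb1 and Aurkb in the last 3. In BCP and (dep)BCP+MSC the range was smaller: Prc1 was at 12.8, 14.1, 10.7 and 21.2 CPM and 4.59, 2.89, 11.5 and 7.77 CPM, and Kif20a at 4.72, 6.03, 3.83 and 5.73 CPM and 4.98, 2.22, 5.01 and 2.04 CPM. Neither gene passed the test among the 6 groups (adjusted p = 0.546 for Prc1 and 0.663 for Kif20a, edgeR F-test).

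The difference between the classes was described per library as the mean log2 CPM of the G1/S members minus that of the G2/M members. It was 0.55 ± 0.19 (SD, n = 4) in BCP+MSC, 0.62 ± 0.20 in BCP, 0.71 ± 0.34 in BCP+MSC+Treg, 0.79 ± 0.18 in BCP+MSC+RvE1, 0.94 ± 0.24 in (dep)BCP+MSC+RvE1inj and 1.12 ± 0.46 in (dep)BCP+MSC. The highest single values were 1.66 and 1.34 in (dep)BCP+MSC replicates 2 and 1 and 1.28 in (dep)BCP+MSC+RvE1inj replicate 3, and the lowest was 0.27 in BCP+MSC replicate 2. Neighbouring groups in this order differed by less than their SD.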

How the data were processed

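The authors extracted the RNA of each entire construct, sequenced stranded mRNA libraries from both ends, aligned the reads with HISAT2 2.0.5 and counted them on exons with featureCounts 1.5.2 and GENCODE M13. The deposited values are raw counts per gene, without normalization, and the recorded counting command sets no strand option. Symbols were matched by Ensembl gene ID for 50376 of the 51138 genes, and coordinates are on GRCm38. In (dep)BCP+MSC the columns are numbered 1, 2, 4 and 5 and the labelled samples 1 to 4, so columns 4 and 5 were used without a replicate number. The members and lists were chosen with earlier results of these data known.

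Genes with at least 10 counts in all were fitted in edgeR 4.0.16 (R 4.3.3, limma 3.58.1) with TMM factors, robust quasi-likelihood dispersions and 1 model of 6 groups, and the Benjamini-Hochberg adjustment covered all of these genes. Log2 CPM used a prior count of 2. For single genes, the exact two-sided permutation test used all 70 arrangements. Leaving out a library, RLE normalization, other filters, a replicate block, a muscle covariate, 2-group fits and DESeq2 1.42.0 were the alternatives. The genes named were 10 fixed genes, 5 fixed genes of other lists (Cdkn1a, Ccnd1, Foxm1, Mybl2 and Myc) and, per comparison, the 2 members of each class and the 2 genes of the other lists with the smallest p-value. Others, Prc1 and Kif20a among them, were named after their values were seen. Same-numbered libraries of BCP+MSC+Treg and BCP+MSC+RvE1 deviated together from their group means in all 4 pairs (r = 0.157 to 0.563 across genes), as a hint from the data and not from the labels. None of the other planned comparisons showed this in all pairs, those with (dep)BCP+MSC holding only 2 pairs each. Pairs of groups outside the planned comparisons were not checked. Figures were drawn with matplotlib 3.10.9.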

Additional observations from a re-analysis of the deposited data

Results flagged for a closer look

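Over 12 quantities, the mean level of each class and 10 single genes, each group of 4 libraries was searched for a library far from the other 3. This was the case in 2 of the 72 sets of 4, and chance alone gives about 1 in 20. Ccnb1 was at 14.9 CPM in BCP+MSC replicate 2, against 6.61 to 7.80 CPM in the other 3. Mcm2 was at 17.4 CPM in (dep)BCP+MSC+RvE1inj replicate 1, against 11.7 to 12.6 CPM in the other 3. Causes were not tested.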

How the results depend on the processing

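In 8 of the 9 comparisons 0 members passed the adjusted threshold in the main analysis, and the alternatives changed this only for (dep)BCP+MSC+RvE1inj, against (dep)BCP+MSC or against BCP+MSC. For (dep)BCP+MSC against BCP+MSC the 11 members called (3.92% of all genes) became 6 with no filter (2.44%), 6 with the muscle covariate (4.70%), 0 with only the 2 groups compared (0.595%), 27 with DESeq2 (9.47%) and 2 to 27 with 1 library left out (1.54% to 5.50%), and 0 without replicates 1 and 2 (0.142%), which was chosen after seeing the data. In that last case the G1/S median was -0.25 and the median over all members -0.56, against -1.09 over all members in the main analysis. For (dep)BCP+MSC+RvE1inj against BCP+MSC, DESeq2 called 3 (3.64%), the G1/S median was -0.40 with the muscle covariate and -0.62 to -0.33 with 1 library left out. The 3 members differing among the 6 groups (4.75%) became 9 with DESeq2 (13.0%), 0 to 5 with 1 library left out (2.88% to 5.34%) and 0 without both replicates (1.87%). The causes were not tested.

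With the replicate block, which leaves out columns 4 and 5 and so keeps only the 2 low libraries of (dep)BCP+MSC, 36 members were called against BCP+MSC (8.12% of all genes; G2/M median -2.19) and 8 for (dep)BCP+MSC+RvE1inj against (dep)BCP+MSC (1.14%; medians 0.85 and 1.43). It gave 1 for (dep)BCP+MSC+RvE1inj against BCP+MSC (0.794%) and 18 among the 6 groups (5.41%). These numbers are not paired by the labels, and the block changed no other adjusted count. Depth limits the single libraries more than the members, the lowest of which had 2934 counts in all.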

Other observations

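The effect of RvE1 injection in toxin-treated hosts and that of RvE1 priming were set against each other as a contrast of the same model, added after the values were seen. All 48 members were above 0, with a median difference of 0.87 on the log2 scale, 8 had an unadjusted p-value under 0.05 (4.45% of all genes) and 0 passed the adjusted threshold in edgeR (smallest adjusted p = 1.00). Without (dep)BCP+MSC replicates 1 and 2, 43 members were above 0, with a median of 0.26 and 0 members at an unadjusted p-value under 0.05 (2.96% of all genes). Leaving out BCP+MSC replicate 2 as well gave 37 above 0, a median of 0.16 and 0 members at that threshold (2.60% of all genes). With 1 library left out, 0 to 27 members passed the unadjusted threshold and 0 the adjusted one. The count was 0 without (dep)BCP+MSC replicate 1 (3.68% of all genes), without its replicate 2 (3.51%) or without BCP+MSC+RvE1 replicate 1 (3.58%). Without column 5 the count was 27 (5.99%). It was 3 without BCP+MSC replicate 2 (3.95%), BCP+MSC+RvE1 replicate 2 (4.76%) or (dep)BCP+MSC+RvE1inj replicate 1 or 4 (3.70% and 3.93%), and 14 without BCP+MSC+RvE1 replicate 4 (4.16%) or column 4 (5.99%).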
